A study of Mus musculus with 46 samples.

Results

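Fulvestrant, given in the labels as ICI, was set against GSK2033 in mouse bone marrow-derived macrophages (BMDM), which are macrophages grown in culture from marrow cells. The members are the libraries whose labels give ICI or GSK2033 as the single compound: 5 with ICI and 5 with GSK2033, 10 of the 46 libraries of the series. Polyadenylated RNA was sequenced, and all genes of the table were considered. The 6 libraries labelled Vehicle are shown for position and enter no contrast, although the fit takes its estimate of spread from all 46 libraries, and 10 libraries that received either compound together with 27-hydroxycholesterol (27HC) are used at the end. Doses, exposure times and the vehicle itself are not in the labels. Nor do they give the strain, age or number of mice, or tell if the 5 libraries sharing a treatment are independent cultures. P-values therefore rest on the spread between libraries as deposited, and that spread may be technical.

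Liver X receptors (LXR) are nuclear receptors that sense oxysterols. With their partner RXR they switch on genes that move cholesterol out of macrophages and make fatty acids, and in macrophages they are also known to hold inflammatory genes down. GSK2033 is an LXR antagonist. Estrogen receptors (ER) are nuclear receptors for estradiol, and fulvestrant is a steroidal antagonist that blocks them and leads to loss of ER alpha protein. Both compounds thus block a nuclear receptor, each a different one, and they are not analogs of one another.

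The total estimated counts ran from 21018541 to 30921038 in the ICI libraries and from 19895062 to 25282583 in the GSK2033 libraries. In a principal component analysis with the Vehicle libraries, the first component held 18.2% of the variance and separated GSK2033 from both other groups. The second component held 12.7% and separated ICI from both Vehicle and GSK2033, with GSK2033 between the other groups. Transcripts encoded in the mitochondrial genome took 1.984% ± 0.139 of the counts with ICI, 1.368% ± 0.0962 with GSK2033 and 1.597% ± 0.102 with Vehicle (SD, n = 5, 5 and 6). Lineage genes of macrophages were expressed throughout, but so were stromal genes such as Col1a1, at 1330 to 2018 CPM (counts scaled to 1000000 per library). The summed level of 11 stromal markers was 6645 to 7507 CPM with ICI, 6270 to 7597 CPM with GSK2033 and 7739 to 9057 CPM with Vehicle. Among the other stromal markers Lum was at or below 0.0987 CPM. The erythroid markers in the table summed to at most 0.255 CPM. The 12 neutrophil markers summed to 66.1 to 71.4 CPM with ICI, 64.3 to 73.7 CPM with GSK2033 and 72.8 to 89.5 CPM with Vehicle. Csf3r made up most of that sum, at 54.1 to 76.8 CPM, followed by Mmp8 at 5.93 to 10.8 CPM, while Ly6g and Elane had no counts in these 16 libraries. The 12 lymphocyte markers summed to 15.3 to 21.6 CPM with ICI, 23.2 to 28.6 CPM with GSK2033 and 19.3 to 23.4 CPM with Vehicle, so that ICI lay below GSK2033 without overlap. Most of that sum was Cd4, at 11.1 to 23.8 CPM, and Cd79b, at 1.97 to 4.24 CPM, while Cd3e and Cd79a, which define T and B cells, reached at most 0.53 and 0.0922 CPM. In bulk RNA, fewer cells of a type and less RNA per cell cannot be told apart, and that holds for every level below.

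Genes of cholesterol export and fatty acid synthesis were higher with ICI than with GSK2033, and inflammatory, interferon and MHC class I genes were lower. Of 13838 genes tested, 3765 (27.2%) passed an adjusted p of 0.05, with 1954 (14.1%) higher and 1811 (13.1%) lower with ICI than with GSK2033. At least 2-fold differences were called for 106 genes (0.766%) that were higher and 133 genes (0.961%) that were lower. The median log2 fold change of all genes was 0.005. The mean of the Vehicle libraries lay nearer to ICI than to GSK2033 on the log2 scale for 1257 of the 1954 higher genes (64.3%) and for 1247 of the 1811 lower genes (68.9%). It lay between both compounds for 1062 of the higher and 901 of the lower genes. In the remaining genes both compounds stood on the same side of Vehicle and differed in extent.

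Fold changes are ICI over GSK2033 on the log2 scale with their standard error, and each adjusted p is for that contrast over all genes tested. Levels are CPM scaled by TMM, given as mean ± SD with n = 5 for ICI and GSK2033 and n = 6 for Vehicle. Where no member of a list passed in a direction, DESeq2 and limma-voom called none either, and at an unadjusted p under 0.05 in edgeR there were none apart from Acss2 among fatty acid genes, Nqo1 among AhR targets and Fscn1 among dendritic cell markers. Genes in brackets behind a count were named after their values were seen, unless they are described elsewhere with their values.

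**Figure D1:**
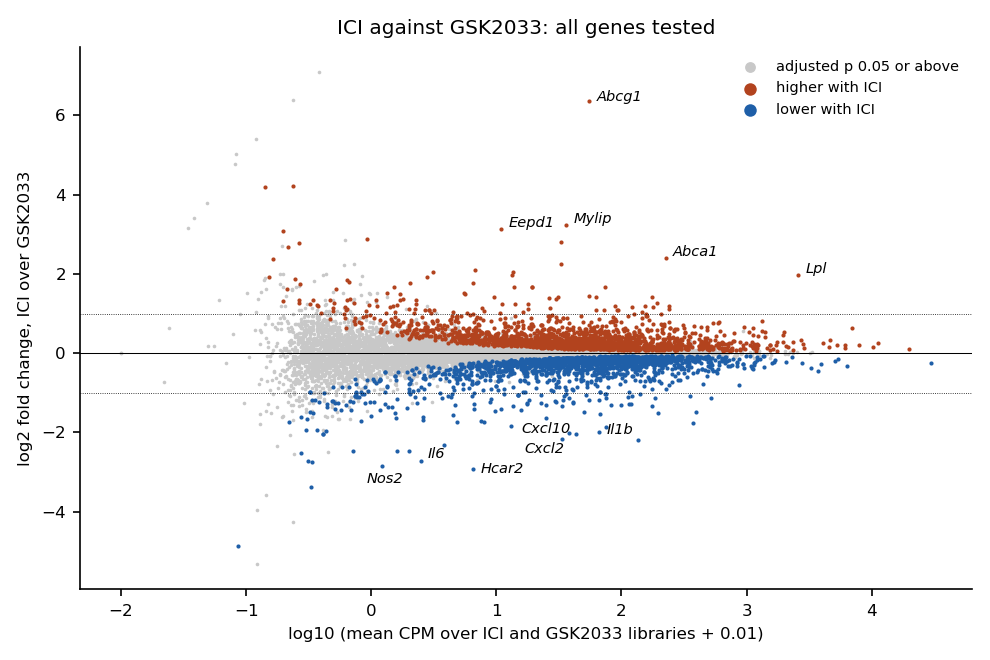
Each point is 1 of 13838 genes. The horizontal axis is the log10 of its mean CPM over the ICI and GSK2033 libraries, with 0.01 added, and the vertical axis is its log2 fold change, ICI over GSK2033. Red marks the 1954 genes called higher with ICI and blue the 1811 called lower, dotted lines mark 2-fold differences, and Abcg1 stands far above all other called genes at 6.35.

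The receptors came first. Nr1h3, which encodes LXR alpha (ENSMUSG00000002108), stood at 79.8, 76.5, 81.6, 78.9 and 83.4 CPM with ICI, against 115, 115, 117, 114 and 119 CPM with GSK2033. No ICI library reached a GSK2033 library, and both groups lay above the Vehicle libraries, which ran from 65.8 over a median of 71.9 to 74.6 CPM. The log2 fold change was -0.53 ± 0.0608 (adjusted p = 9.42e-10). Nr1h2, which encodes LXR beta, was also lower, at 74.1 ± 2.47 CPM with ICI and 87.9 ± 5.27 CPM with GSK2033 (log2 -0.25 ± 0.038, adjusted p = 1.10e-06). Rxra, their partner, differed by only 0.08 on the log2 scale with overlapping groups, at 135 ± 5.29 and 128 ± 3.95 CPM (adjusted p = 0.036), and that call was lost in 14 of 21 alternative analyses.

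Esr1, which encodes ER alpha, the target of fulvestrant, was scarce. Its libraries held 4.81, 5.78, 5.95, 5.2 and 5.95 CPM with ICI and 6.46, 5.37, 5.85, 8.14 and 6.63 CPM with GSK2033, while Vehicle ran from 5.77 to 6.63 CPM. The groups overlapped, and the log2 fold change of -0.22 ± 0.106 did not pass the test (adjusted p = 0.117). Esr2, which encodes ER beta, had 0 to 2 counts per library with ICI, 1 to 5 with GSK2033 and 0 to 4 with Vehicle and was not tested. Gper1, a membrane receptor for estrogen, averaged 0.16 ± 0.0986 CPM with ICI and 0.224 ± 0.073 CPM with GSK2033 (adjusted p = 0.566). Of 12 tested receptors and coregulators, 4 were higher (among them Rxra, Ncoa2 and Ncoa3) and 2 lower (Nr1h2 and Nr1h3) with ICI, against 14.1% and 13.1% of all genes. Among the higher ones were the coactivators Ncoa3 (105 ± 13 and 83 ± 2.88 CPM, log2 0.33 ± 0.0576) and Ncoa2 (59.3 ± 3.57 and 51.1 ± 3.16 CPM, log2 0.21 ± 0.0604).

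LXR targets were mostly higher with ICI. Of 26 tested members of that list, 20 were higher and 1, Nr1h3 itself, was lower with ICI, with a median log2 fold change of 0.68. Among all genes, 14.1% were higher and the median was 0.005. The mean with Vehicle lay between both compounds for 10 of the 21 called members, above both for 8 and below both for 3.

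Abcg1 and Abca1 encode transporters that hand cholesterol to lipoproteins outside the cell. Abcg1 (ENSMUSG00000024030, GRCm38 chromosome 17, 31057675 to 31117988, plus strand) stood at 120, 111, 109, 109 and 100 CPM with ICI, against 1.66, 1.07, 1.49, 1.18 and 1.31 CPM with GSK2033. Vehicle lay between them, from 35.1 over a median of 38.4 to 52.8 CPM, and the 3 groups did not overlap. The difference was 81.6-fold (log2 6.35 ± 0.12, adjusted p = 7.32e-36). Abca1 (ENSMUSG00000015243, chromosome 4, 53030787 to 53159895, minus strand) stood at 375, 410, 368, 370 and 377 CPM with ICI, against 71, 80.6, 63.1, 79.6 and 62 CPM with GSK2033. Here the Vehicle libraries, from 345 over a median of 397 to 429 CPM, overlapped those with ICI and lay above every GSK2033 library. The difference between the compounds was 5.32-fold (log2 2.41 ± 0.0714, adjusted p = 1.51e-28).

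The promoter of Abca1 holds an LXR element, the best known site of LXR and RXR binding, and is shown because the gene it serves differed 5.32-fold. The window runs from 250 bases before to 50 bases after the RefSeq start site (GRCm38.p6, chr4:53159846-53160145, minus strand), and capitals mark the element, read on the opposite strand from position -67 to -53.
Abca1: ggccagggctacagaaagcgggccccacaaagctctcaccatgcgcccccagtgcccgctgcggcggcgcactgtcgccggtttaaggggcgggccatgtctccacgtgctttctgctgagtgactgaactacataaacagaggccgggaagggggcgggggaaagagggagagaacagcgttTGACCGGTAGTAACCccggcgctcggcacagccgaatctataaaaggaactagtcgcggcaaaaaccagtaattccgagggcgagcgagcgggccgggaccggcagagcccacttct
The motif searched on both strands was 2 copies of GGTNA with 5 bases between them. It matched in 57 of 10279 tested genes with a promoter sequence (0.555%), in 3 of 19 LXR targets (Abca1, Fasn and Srebf1), in 3 of 66 genes at least 2-fold higher with ICI (4.55%) and in 1 of 90 genes at least 2-fold lower (1.11%). A match is a description of these letters, and the other LXR targets with a sequence had none in this window.

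Mylip encodes a ubiquitin ligase that limits lipoprotein uptake. Its levels were 64.9, 66.6, 64.5, 66.9 and 63.4 CPM with ICI, against 7.07, 6.59, 6.55, 7.77 and 6.58 CPM with GSK2033, and 32.6, 35.8 and 37.2 CPM as lowest, median and highest with Vehicle. All ICI libraries lay above Vehicle and all GSK2033 libraries below it, a 9.43-fold difference (log2 3.24 ± 0.0456) with the smallest adjusted p of all genes, 7.07e-42. Eepd1, whose product supports cholesterol efflux in macrophages, followed the same order, at 19.7 ± 2.09 CPM with ICI, 2.26 ± 0.188 CPM with GSK2033 and 13.9 ± 1.02 CPM with Vehicle (log2 3.12 ± 0.0698). Lpl, the lipoprotein lipase gene, stood at 4427, 4057, 4172, 4113 and 3858 CPM with ICI, against 1095, 1036, 1156, 956 and 1038 CPM with GSK2033 and 1554, 1727 and 1957 CPM as lowest, median and highest with Vehicle. Its ICI libraries were all above Vehicle and its GSK2033 libraries all below (log2 1.97 ± 0.0499, adjusted p = 1.79e-31). In contrast, Arl4c, a small GTPase gene, stood below Vehicle (242 ± 6.26 CPM) with either compound, at 195 ± 4.52 CPM with ICI and 95.3 ± 1.54 CPM with GSK2033 (log2 1.03 ± 0.0222, adjusted p = 1.34e-34).

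Smaller differences were found at other LXR targets. Lpcat3, a phospholipid remodelling enzyme, averaged 48.4 ± 2.37 CPM with ICI, 28.5 ± 1.46 CPM with GSK2033 and 48.1 ± 1.49 CPM with Vehicle (log2 0.77 ± 0.0376). Apoe, the apolipoprotein that accepts exported cholesterol, averaged 5189 ± 438 CPM with ICI, 4143 ± 260 CPM with GSK2033 and 5984 ± 497 CPM with Vehicle (log2 0.32 ± 0.057, adjusted p = 1.28e-05). Lpcat3 and Apoe were chosen after their values were seen. The 5 members that did not pass the test were Abca5, Apoc1, Npc2, Slc29a1 and Abhd6, with log2 fold changes of -0.22, 0.08, -0.02, 0.01 and -0.20.

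**Figure D2:**
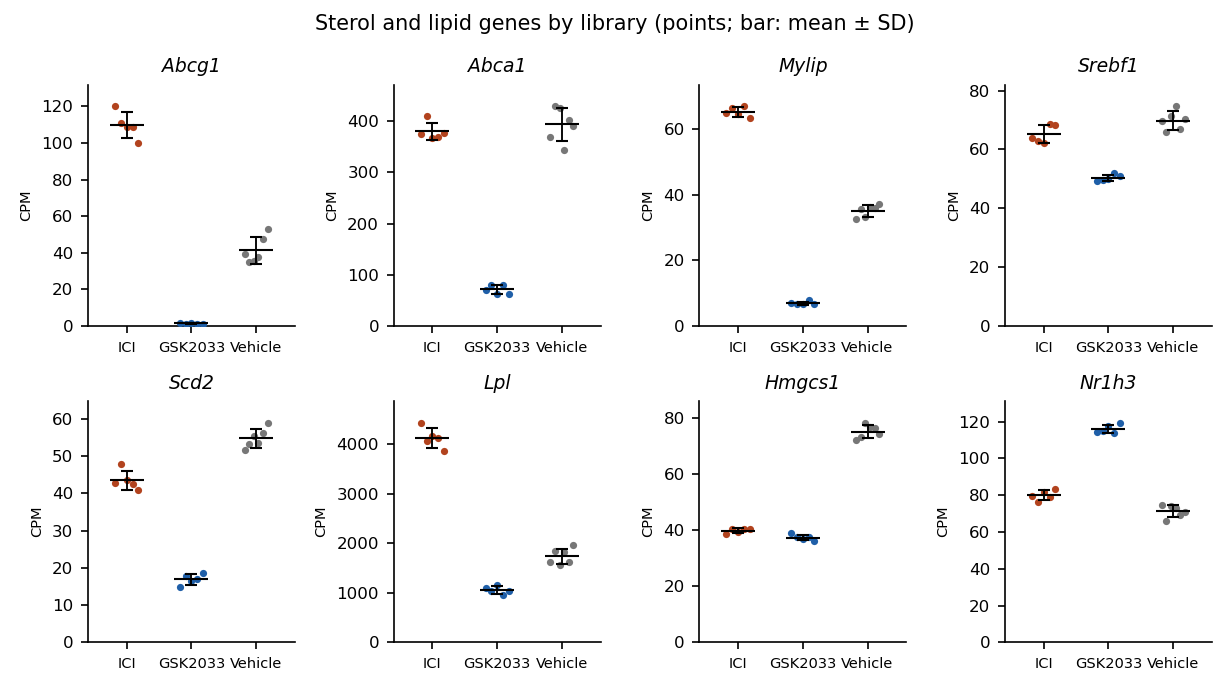
CPM of 8 sterol and lipid genes, with 1 point per library and the mean ± SD as bars, for ICI, GSK2033 and Vehicle from left to right. Abcg1, Mylip and Lpl are above Vehicle with ICI and below it with GSK2033, Hmgcs1 is below Vehicle with either compound, and Nr1h3 is highest with GSK2033.

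Fatty acid synthesis genes were mostly higher with ICI. Of 16 tested genes, 12 were higher and none lower with ICI, with a median log2 fold change of 0.51 (14.1% of all genes were higher). Fasn, Scd1 and Scd2 are also on the list of LXR targets, so the counts of these lists are not separate. For 8 of the 12 the Vehicle mean was above both compounds, and for 4 it lay between them. Scd2, a desaturase that introduces the double bond of oleate and also an LXR target, stood at 42.7, 47.8, 43.5, 42.6 and 41 CPM with ICI, against 14.7, 17.8, 16.5, 16.9 and 18.5 CPM with GSK2033. Every ICI library was above every GSK2033 library, and both groups were below the Vehicle range of 51.5 to 58.9 CPM (median 54.3), with a log2 fold change of 1.37 ± 0.0503 (adjusted p = 6.49e-26). Mid1ip1, which helps acetyl-CoA carboxylase form active filaments, averaged 45 ± 2.34 CPM with ICI and 16.9 ± 1.74 CPM with GSK2033 (log2 1.41 ± 0.059). The carboxylase gene Acaca and the elongase gene Elovl5 were 1.63-fold and 1.44-fold higher with ICI. Srebf1, the transcription factor gene that drives this pathway, differed less, with 64, 62.9, 62.2, 68.8 and 68.5 CPM with ICI and 49.3, 49.8, 50, 51.9 and 51 CPM with GSK2033. These groups did not overlap, and Vehicle, at 65.8 to 74.6 CPM, overlapped the ICI libraries (log2 0.37 ± 0.0522, adjusted p = 1.26e-07). The 4 genes that did not pass were Acacb, Me1, Elovl1 and Acss2.

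Genes of cholesterol synthesis and uptake, which are driven by SREBP2 and not by LXR, were more often higher than lower with ICI. Of 28 tested genes, 10 were higher and 2 (Mvd and Ggps1) lower with ICI, against 14.1% higher and 13.1% lower among all genes, with a median log2 fold change of 0.10. For 11 of the 12 called genes the mean with Vehicle was above both compounds. Hmgcs1, an early enzyme of the pathway, stood at 38.9, 40.7, 39.4, 40.5 and 40.5 CPM with ICI and at 38.9, 37.5, 36.8, 37.8 and 36.3 CPM with GSK2033. The groups touched at 38.9 CPM, and both were far below the Vehicle libraries at 72.4 to 78.4 CPM (log2 0.09 ± 0.0401, adjusted p = 0.0819). Insig1, the sterol-sensing anchor protein gene, averaged 31.5 ± 1 CPM with ICI, 31.8 ± 1.26 CPM with GSK2033 and 70.6 ± 3.2 CPM with Vehicle (log2 -0.01 ± 0.0369, adjusted p = 0.891). Idi1, an isomerase, and Stard4, a sterol carrier, were 1.35-fold and 1.26-fold higher with ICI. Mvd, a decarboxylase of the mevalonate pathway, went the other way, at 7.31 ± 0.605 CPM with ICI and 10.3 ± 1.03 CPM with GSK2033 (log2 -0.48 ± 0.0764).

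Estrogen-responsive genes, a list drawn mainly from breast and uterine tissue, were tested for 15 members, of which 8 were higher and 1 (Rarg) was lower with ICI, with a median of 0.16 (14.1% of all genes were higher and 13.1% lower). Greb1, Pgr and Tff1, which mark ER alpha activity in such tissues, were too low to be tested. Igf1, a growth factor gene, stood at 725, 724, 740, 766 and 804 CPM with ICI, against 426, 436, 473, 418 and 451 CPM with GSK2033, and 512 to 565 CPM with Vehicle. ICI libraries were above Vehicle and GSK2033 libraries below it (log2 0.77 ± 0.0332, adjusted p = 1.90e-23). Ccnd1, the cyclin D1 gene, stood at 258, 252, 243, 265 and 243 CPM with ICI, against 175, 168, 175, 179 and 185 CPM with GSK2033, and both groups were above Vehicle at 120 to 155 CPM (log2 0.51 ± 0.0471, adjusted p = 2.26e-12). Myc and Foxo3, transcription factor genes, were 1.38-fold and 1.26-fold higher with ICI.

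Inflammatory genes were lower with ICI almost throughout. Of 28 tested cytokines and NF-kB targets, none was higher and 25 were lower, with a median log2 fold change of -1.03, against 13.1% of all genes lower. For 14 of the 25 the Vehicle mean lay between the compounds, for 7 below both and for 4 above both.

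Cxcl2, a chemokine gene for neutrophils, stood at 10.6, 13.4, 12, 11 and 13.8 CPM with ICI, against 54.8, 57.1, 54.3, 53.7 and 54 CPM with GSK2033. Vehicle lay between, from 21.3 over a median of 23.1 to 29.9 CPM, with no overlap of the 3 groups (log2 -2.17 ± 0.125, adjusted p = 1.43e-18). Il6 was scarce and followed the same order, at 0.213, 0.53, 0.999, 0.626 and 0.864 CPM with ICI, against 4.36, 4.66, 4.97, 3.91 and 3.87 CPM with GSK2033. Its Vehicle libraries lay between both, at 1.17 to 1.89 CPM (log2 -2.72 ± 0.285, adjusted p = 1.01e-10). Icam1, an adhesion molecule gene, stood at 97.8, 104, 103, 96 and 103 CPM with ICI, against 267, 252, 253, 255 and 240 CPM with GSK2033 and 139, 149 and 165 CPM as lowest, median and highest with Vehicle. Its 3 groups did not overlap, with Vehicle in the middle (log2 -1.33 ± 0.0453, adjusted p = 3.41e-27). Ptgs2, which encodes the inducible cyclooxygenase, kept that order, at 24.4 ± 1.14 CPM with ICI, 57.4 ± 4.68 CPM with GSK2033 and 34.2 ± 2.12 CPM with Vehicle (log2 -1.24 ± 0.0678).

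Other members stood differently to Vehicle. Cxcl10, an interferon-induced chemokine gene, was at 13.2, 15, 15, 16.6 and 14.8 CPM with ICI, against 63.4, 54, 66.7, 58.4 and 60.8 CPM with GSK2033. Both groups were above Vehicle, at 10.3, 12.2 and 12.6 CPM as lowest, median and highest, with ICI close to it (log2 -2.02 ± 0.135, adjusted p = 1.38e-16). Nos2, which makes nitric oxide, was at 0.553, 0.289, 0.167, 0.0482 and 0.365 CPM with ICI, against 2.67, 2.09, 2.14, 2.27 and 1.46 CPM with GSK2033. The ICI libraries overlapped Vehicle at 0.15 to 0.564 CPM, and the gene is scarce enough that single counts weigh in the ICI values (log2 -2.85 ± 0.485, adjusted p = 6.44e-06).

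Il1b, the interleukin-1 beta gene, was at 25.1, 25.2, 28.7, 22.7 and 31.6 CPM with ICI, against 112, 128, 95.8, 109 and 87.4 CPM with GSK2033. Both groups lay below Vehicle, at 139, 153 and 205 CPM as lowest, median and highest, ICI much further (log2 -1.99 ± 0.169, adjusted p = 6.97e-13). Nlrp3, the inflammasome sensor gene, averaged 38.1 ± 1.62 CPM with ICI, 68.8 ± 4.45 CPM with GSK2033 and 63.3 ± 4.38 CPM with Vehicle (log2 -0.85 ± 0.0475). Tnf, Ccl2 and Ccl4 were 1.72-fold, 2.34-fold and 2.03-fold lower with ICI. Tnf averaged 44.9 ± 0.612 CPM with ICI, 77.1 ± 4.36 CPM with GSK2033 and 37.4 ± 3.79 CPM with Vehicle. The 3 members that did not pass were Saa3 (280 ± 48.4 and 239 ± 35.7 CPM), Il18 (8.27 ± 0.818 and 9.72 ± 0.805 CPM, adjusted p = 0.0591) and Il1a (4.25 ± 1.13 and 5.12 ± 1.11 CPM). Tnf, Ccl2, Saa3, Il18 and Il1a were chosen after their values were seen.

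**Figure D3:**
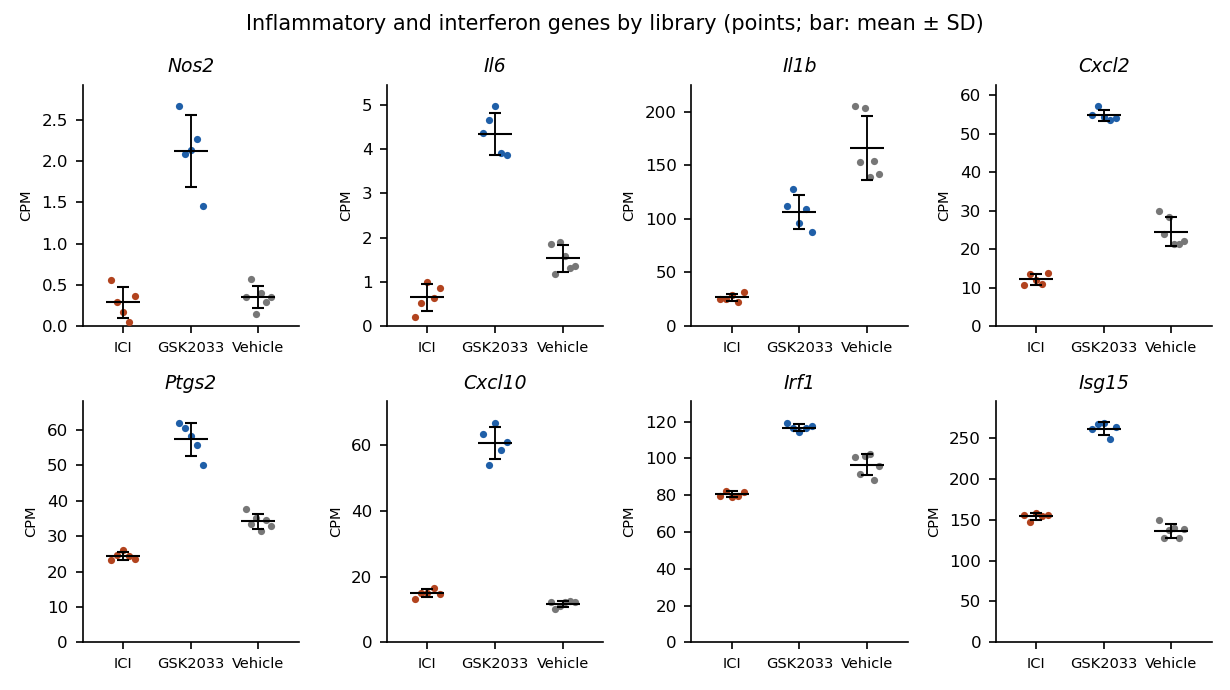
CPM of 8 inflammatory and interferon genes, with 1 point per library and the mean ± SD as bars, for ICI, GSK2033 and Vehicle from left to right. Every ICI library is below every GSK2033 library in each panel, while Vehicle lies near ICI for Nos2, Cxcl10 and Isg15 and above both compounds for Il1b.

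The promoters of Cxcl2 and Cxcl10 are shown with the kappaB element, a site that NF-kB proteins bind, in capitals. The Cxcl10 window also matches the interferon element searched further below, and that match is not marked. Both genes encode chemokines and are among the 12 lowest log2 fold changes kept by the filters for named genes, which are given below. The Cxcl2 window (GRCm38.p6, chr5:90903649-90903948, plus strand) holds it from position -97 to -88, and the Cxcl10 window (chr5:92348840-92349139, minus strand) from -103 to -94.
Cxcl2: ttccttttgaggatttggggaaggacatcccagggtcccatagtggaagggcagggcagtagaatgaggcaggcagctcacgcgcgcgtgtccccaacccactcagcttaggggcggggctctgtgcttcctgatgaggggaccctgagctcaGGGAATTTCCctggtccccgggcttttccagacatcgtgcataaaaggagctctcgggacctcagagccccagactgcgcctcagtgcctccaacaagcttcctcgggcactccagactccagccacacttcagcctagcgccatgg
Cxcl10: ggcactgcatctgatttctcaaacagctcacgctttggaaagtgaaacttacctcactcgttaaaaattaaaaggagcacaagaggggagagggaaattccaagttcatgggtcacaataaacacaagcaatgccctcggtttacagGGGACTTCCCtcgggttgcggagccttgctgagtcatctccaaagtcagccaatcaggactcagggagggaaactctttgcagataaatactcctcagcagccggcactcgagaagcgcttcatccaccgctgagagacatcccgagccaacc
The motif searched was GGGANTTNCC on both strands, chosen after the gene differences were seen. It matched in 160 of 10279 tested genes (1.56%), in 7 of 20 inflammatory list members (35%), in 11 of 90 genes at least 2-fold lower with ICI (12.2%) and in 1 of 66 genes at least 2-fold higher (1.52%). Il6, Cxcl1 and Cxcl3 also have a match, and with Cxcl2 and Cxcl10 they are counted both in the list and among the lower genes. The inflammatory list was drawn up to hold NF-kB targets, so its share and that of the lower genes are not separate findings.

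Interferon response genes were lower with ICI by a smaller margin. Of 35 tested members, none was higher and 29 were lower, with a median log2 fold change of -0.39 (13.1% of all genes were lower). For 20 of the 29 the Vehicle mean was below both compounds, and it was above both for none. Isg15, a ubiquitin-like protein gene, stood at 156, 147, 158, 154 and 156 CPM with ICI, against 260, 267, 268, 248 and 263 CPM with GSK2033, and ICI overlapped Vehicle at 127 to 149 CPM (log2 -0.76 ± 0.0594, adjusted p = 1.96e-14). Irf1, a transcription factor gene of this response, stood at 79.5, 82.5, 78.9, 79.7 and 81.9 CPM with ICI, against 119, 116, 114, 116 and 117 CPM with GSK2033, with Vehicle between at 88 to 102 CPM (log2 -0.54 ± 0.0411, adjusted p = 9.32e-15).

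Gbp5, a guanylate-binding protein gene, had the widest difference of the list, at 16.6, 15.6, 14.2, 12.9 and 12.6 CPM with ICI and 39.5, 34.4, 33.2, 35.1 and 36.2 CPM with GSK2033. Its ICI libraries overlapped Vehicle at 13.7 to 17.2 CPM, and all GSK2033 libraries were above both (log2 -1.31 ± 0.107, adjusted p = 6.27e-14). Igtp, a GTPase of cell-intrinsic immunity, was 1.46-fold lower with ICI. Irf7, the regulator of type I interferon genes, did not follow, at 1069 ± 16.7 CPM with ICI, 1054 ± 43.3 CPM with GSK2033 and 1168 ± 40.9 CPM with Vehicle (log2 0.02 ± 0.0434, adjusted p = 0.789), and it was chosen after its values were seen. The promoter of Isg15 (GRCm38.p6, chr4:156200769-156201068, minus strand) shows the interferon element, with 3 overlapping matches in capitals, the first from -78 to -69.
Isg15: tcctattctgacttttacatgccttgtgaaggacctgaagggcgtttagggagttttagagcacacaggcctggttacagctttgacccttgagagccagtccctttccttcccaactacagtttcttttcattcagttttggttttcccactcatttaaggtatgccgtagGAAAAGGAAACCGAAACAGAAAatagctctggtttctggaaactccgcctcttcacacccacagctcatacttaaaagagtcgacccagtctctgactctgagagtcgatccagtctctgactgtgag
The motif, GAAANNGAAA on both strands, matched in 417 of 10279 tested genes (4.06%), in 17 of 28 interferon list members (60.7%), in 6 of 90 genes at least 2-fold lower (6.67%) and in 2 of 66 at least 2-fold higher with ICI (3.03%). The interferon list was drawn up to hold genes of that response, so its share is not a separate finding. Gbp5 is counted both in that list and among the lower genes.

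MHC class I and peptide loading genes were lower with ICI for 16 of 18 members and higher for 1, the chaperone Calr, with a median of -0.35, against 13.1% of all genes lower. H2-T22 averaged 227 ± 11.8 CPM with ICI, 360 ± 11.7 CPM with GSK2033 and 216 ± 6.22 CPM with Vehicle (log2 -0.67 ± 0.044). H2-Q6, H2-Q7 and H2-Q4 were 2.49-fold, 2.14-fold and 1.89-fold lower with ICI, but these near-identical genes share reads, so how the difference divides among them is uncertain. MHC class II and co-stimulation genes split, with 4 higher (H2-Aa, H2-Eb1, H2-DMa and Cd74) and 5 lower (H2-Oa, Cd80, Cd86, Cd40 and Icosl) of 14, where 14.1% of all genes were higher and 13.1% lower. The class II gene H2-Eb1 was higher, at 32.6 ± 1.84 CPM with ICI and 25.9 ± 2.02 CPM with GSK2033 (log2 0.33 ± 0.0645). The co-stimulatory ligand genes Icosl, Cd40 and Cd86 were 2.06-fold, 1.89-fold and 1.41-fold lower.

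Myeloid genes known to restrain T cells also went both ways, with 3 higher (Havcr2, Vsir and Entpd1) and 5 lower (Nos2, Siglec1, Ptges, Ptgs2 and Pvr) of 15, beside the same 14.1% and 13.1%. Havcr2, which encodes the checkpoint receptor TIM-3, averaged 15.2 ± 0.856 CPM with ICI, 8.18 ± 0.623 CPM with GSK2033 and 11.6 ± 0.709 CPM with Vehicle (log2 0.90 ± 0.07). Vsir, which encodes VISTA, was 1.31-fold higher. Ptges, the enzyme of prostaglandin E production downstream of Ptgs2, averaged 24.3 ± 2.17 CPM with ICI, 57.8 ± 6.02 CPM with GSK2033 and 27.7 ± 2.73 CPM with Vehicle (log2 -1.25 ± 0.102). Nos2 and Ptgs2 are on this list and on the inflammatory one, so these counts are not separate.

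Macrophage identity genes were mostly higher with ICI than with GSK2033, 11 of 17, with 3 lower (Adgre1, Cd14 and Lyz2) and a median of 0.12, against 14.1% of all genes higher and 13.1% lower. Their summed level went the other way, at 22318 to 23076 CPM with ICI and 23375 to 24424 CPM with GSK2033. Vehicle was above both sums, at 29002 to 31345 CPM, and for 9 of the 14 called members its mean was above both compounds. Cebpa, a myeloid transcription factor gene, averaged 277 ± 3.37 CPM with ICI, 140 ± 7.93 CPM with GSK2033 and 208 ± 9.92 CPM with Vehicle (log2 0.98 ± 0.0374). Mertk, a receptor for the uptake of dead cells, was 1.60-fold higher. Cd14, the co-receptor for bacterial lipopolysaccharide, was lower with ICI, at 606, 608, 663, 630 and 665 CPM, than with GSK2033, at 1130, 1144, 1156, 1064 and 1017 CPM, and both groups were below Vehicle at 1287 to 1470 CPM (log2 -0.80 ± 0.0413, adjusted p = 1.80e-20). Irf8, a transcription factor gene outside the list, averaged 113 ± 3.61 CPM with ICI, 59.7 ± 1.11 CPM with GSK2033 and 92.1 ± 2.66 CPM with Vehicle (log2 0.92 ± 0.026).

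Some markers of other cells were called as well, where 27.2% of all genes were. Of 10 tested stromal markers, 3 were higher (Pdgfrb, Fn1 and Acta2) and 2 lower (Col3a1 and Sparc) with ICI, with log2 fold changes from -0.36 to 0.42, and the ranges of their summed level overlapped. Of 7 tested osteoclast markers 2 (Atp6v0d2 and Itgb3) were higher and 1 (Mmp9) lower. Of 3 tested neutrophil markers and of 5 tested dendritic cell markers none passed the test. Of 3 tested lymphocyte markers 1 (Cd4) was lower, and of 4 tested mast cell and basophil markers 1 (Mcpt8) was higher. The part of these other cells in the differences above was not tested.

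**Figure D4:**
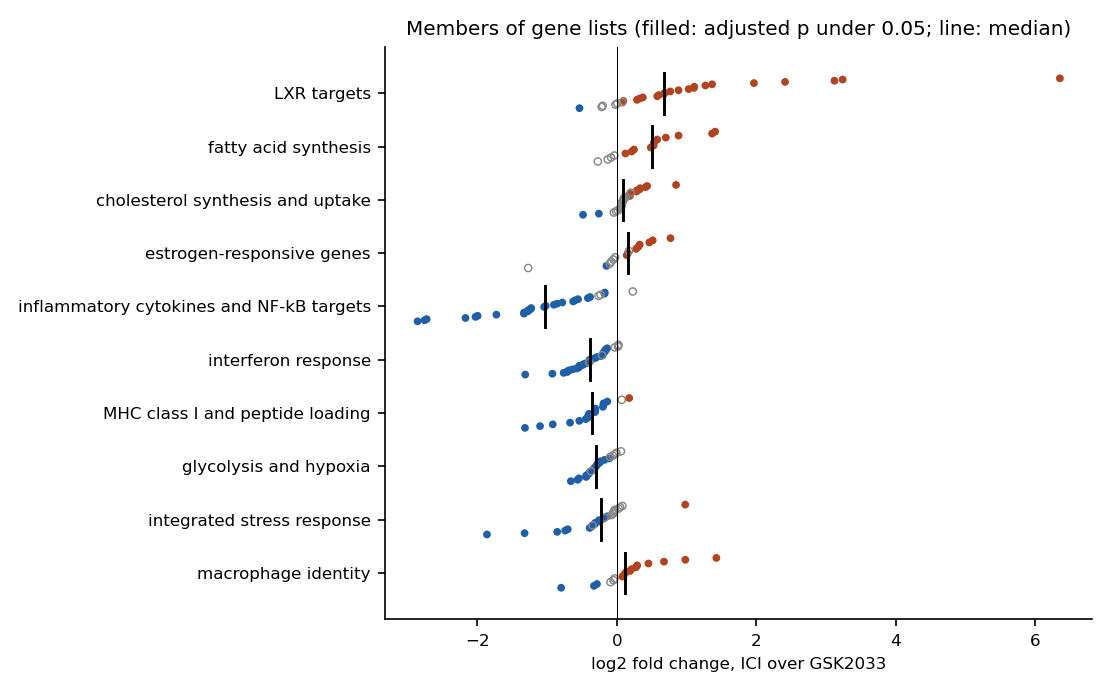
Each row is a gene list and each point a tested member at its log2 fold change, ICI over GSK2033. Filled points passed an adjusted p of 0.05, in red where higher and blue where lower with ICI, open points did not, and the black line is the median, which runs from -1.03 for inflammatory genes to 0.68 for LXR targets.

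Genes of glycolysis and of the integrated stress response were more often lower than higher with ICI. In glycolysis and hypoxia, 16 of 22 genes were lower and none higher, with a median of -0.30, against 13.1% of all genes lower. Slc2a1, the glucose transporter gene, averaged 86.7 ± 5.26 CPM with ICI, 128 ± 3.43 CPM with GSK2033 and 98.1 ± 4.07 CPM with Vehicle (log2 -0.56 ± 0.0356). Pfkfb3, Pgam1 and P4ha1 were 1.46-fold, 1.25-fold and 1.24-fold lower. For 14 of the 16 the Vehicle mean lay between the compounds.

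The integrated stress response, which ATF4 drives when amino acids or protein folding fail, was lower with ICI for 13 of 24 genes and higher for 1, with a median of -0.23 (13.1% of all genes were lower), but for 11 of these 14 Vehicle was below both compounds. Gdf15, a stress hormone gene, stood at 19.6, 18.6, 18.9, 19 and 19.5 CPM with ICI, against 44.7, 48.1, 51.8, 42.6 and 51.7 CPM with GSK2033, and both were above Vehicle at 11.7 to 13.5 CPM (log2 -1.32 ± 0.0475, adjusted p = 2.68e-26). Slc7a11, the cystine transporter gene, stood at 32, 35.1, 32.6, 30.4 and 33.4 CPM with ICI, against 128, 119, 113, 124 and 111 CPM with GSK2033, and the ICI libraries overlapped Vehicle at 31.6 to 45.3 CPM (log2 -1.86 ± 0.0823, adjusted p = 1.26e-22). Trib3, a pseudokinase gene, was 1.63-fold lower. Atf3, a stress-induced transcription factor gene, was the exception, at 232, 198, 209, 223 and 192 CPM with ICI, against 113, 102, 113, 99.7 and 105 CPM with GSK2033. The GSK2033 libraries overlapped Vehicle at 95.4 to 117 CPM, and all ICI libraries were above both (log2 0.98 ± 0.0528, adjusted p = 9.13e-20).

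Chaperones of the endoplasmic reticulum split, with 5 higher (Hsp90b1, Pdia3, Calr, Canx and Sdf2l1) and 7 lower of 18, against 14.1% higher and 13.1% lower among all genes. Herpud1 and Hspa5, which encodes the chaperone BiP, were 1.58-fold and 1.25-fold lower with ICI. Hspa5 averaged 973 ± 16.6 CPM with ICI, 1212 ± 35.9 CPM with GSK2033 and 766 ± 17.7 CPM with Vehicle. Of 18 NRF2 targets, the antioxidant genes, 2 were higher (Osgin1 and Ftl1), near the share of all genes, and 6 lower. Slc7a11 is among the lower ones and also on the stress response list, and Calr is also on the MHC class I list. The counts of these lists are therefore not separate. Prdx1 and Gsr, which reduce peroxides and glutathione, were 1.30-fold and 1.44-fold lower with ICI.

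Genes of lipid uptake and lysosomes were more often higher than lower with ICI, while 14.1% of all genes were higher and 13.1% lower. Of 17 PPAR targets and lipid droplet genes 7 were higher and 3 lower (Fabp4, Angptl4 and Hilpda). Cd36, a scavenger receptor for oxidised lipoproteins, averaged 1710 ± 57 CPM with ICI, 974 ± 22.8 CPM with GSK2033 and 1366 ± 63 CPM with Vehicle (log2 0.81 ± 0.0266). Pparg itself averaged 40.8 ± 2.06 CPM with ICI, 23.2 ± 1.09 CPM with GSK2033 and 26.5 ± 2.9 CPM with Vehicle (log2 0.81 ± 0.0614). Ucp2 and the droplet coat gene Plin2 were 1.35-fold and 1.19-fold higher. Of 30 lysosome genes 13 were higher and 5 lower (among them Ctsz, Atp6v0d1, Atp6v1h and Neu1), with a median of 0.04. Lipa, which encodes the lipase that frees cholesterol from its esters in the lysosome, averaged 2352 ± 66 CPM with ICI, 1612 ± 32.6 CPM with GSK2033 and 1686 ± 81.2 CPM with Vehicle (log2 0.55 ± 0.0271).

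Most further lists went both ways, beside 14.1% higher and 13.1% lower among all genes. AhR, PXR and CAR targets and mitochondrially encoded transcripts were called in a single direction. Members such as Atf3, Myc and Ddit4 are also on lists above, so those counts are not separate. DNA replication genes were higher for 6 of 28 and lower for 2 (Rrm2 and E2f1), and these 8 called genes are near the 27.2% called among all genes. The higher ones included the sliding clamp gene Pcna, at 301 ± 9.9 CPM with ICI, 176 ± 12.2 CPM with GSK2033 and 163 ± 9.49 CPM with Vehicle (log2 0.77 ± 0.0399), and the helicase gene Mcm6, 1.47-fold higher. Of 18 immediate early genes 5 were higher (Fos, Atf3, Zfp36, Myc and Nr4a1) and 7 lower, with Ier3 2.08-fold and Junb 1.30-fold lower and the orphan receptor gene Nr4a1 1.90-fold higher with ICI. Among 15 genes of matrix proteases and plasminogen activation, 3 were higher (Mmp12, Mmp27 and Plau) and 4 lower (Mmp9, Mmp14, Serpinb2 and Timp1). The plasminogen activator gene Plau was 2.11-fold higher, while Serpinb2, which encodes an inhibitor of that activator, was 2.34-fold lower. Of 14 glucocorticoid-responsive genes 7 were higher and 4 lower (Dusp1, Ddit4, Nfil3 and Tgfbr3), with the kinase gene Sgk1 1.27-fold and the metallothionein gene Mt1 1.47-fold higher. In alternative activation 3 of 13 were higher (Pparg, Trem2 and Tgm2) and 3 lower (Il4ra, Socs3 and Klf4), with the lipid receptor gene Trem2 1.56-fold higher and Socs3, a brake on cytokine signalling, 1.65-fold lower. Of 9 AhR, PXR and CAR targets 4 were lower (Ahrr, Tiparp, Nfe2l2 and Ugt1a7c), and of 7 retinoid and vitamin D targets 2 were higher (Dhrs3 and Tgm2) and 1 (Vdr) lower. All 11 called genes among 13 mitochondrially encoded transcripts were higher with ICI, with a median of 0.59. Among these, mt-Cytb averaged 1383 ± 88.8 CPM with ICI, 885 ± 40.6 CPM with GSK2033 and 1106 ± 66.7 CPM with Vehicle (log2 0.64 ± 0.067). With the mitochondrially encoded genes left out of the fit, 1875 genes were higher and 1891 lower.

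Beyond the lists, the genes with the widest differences included several of signalling and transport. Abi3, an actin regulator gene, averaged 58 ± 3.89 CPM with ICI, 8.32 ± 1.45 CPM with GSK2033 and 35.5 ± 2.26 CPM with Vehicle (log2 2.81 ± 0.073, adjusted p = 1.50e-31). Gngt2, a G protein subunit gene, averaged 54.7 ± 2.38 CPM with ICI, 11.5 ± 1.21 CPM with GSK2033 and 33.4 ± 1.4 CPM with Vehicle (log2 2.26 ± 0.0729). Gpr183, which encodes a receptor for oxysterols that guides immune cells, averaged 21.9 ± 1.44 CPM with ICI, 5.32 ± 0.407 CPM with GSK2033 and 14.4 ± 1.4 CPM with Vehicle (log2 2.04 ± 0.0655). Each of these genes was above all Vehicle libraries with ICI and below them with GSK2033. The phospholipid transporter gene Abcb4 and the histone deacetylase gene Hdac9, 4.30-fold and 3.79-fold higher with ICI, stood in that order too. Chn2, a Rac regulator gene, was 4.11-fold higher, with GSK2033 overlapping Vehicle. Cd38, which encodes an NAD-consuming enzyme, was 3.95-fold higher, with ICI overlapping Vehicle. B4galt6, a glycolipid-forming galactosyltransferase gene, averaged 333 ± 5.49 CPM with ICI, 146 ± 5.24 CPM with GSK2033 and 236 ± 11.1 CPM with Vehicle (adjusted p = 2.87e-34), and AB124611 averaged 80.1 ± 1.69, 29.2 ± 1.9 and 75.1 ± 2.38 CPM in the same groups.

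At the other end, Hcar2, which encodes the receptor for niacin and ketone bodies, was at 1.57, 1.59, 1.71, 1.45 and 1.26 CPM with ICI, against 12, 12, 12.8, 11 and 10 CPM with GSK2033. Every ICI library was below Vehicle, at 2.11 to 2.82 CPM, and every GSK2033 library above it, a 7.64-fold difference (log2 -2.93 ± 0.14, adjusted p = 8.16e-22). Slc13a3, a dicarboxylate transporter gene, averaged 48.8 ± 2.61 CPM with ICI, 222 ± 9.95 CPM with GSK2033 and 91.5 ± 7.33 CPM with Vehicle (log2 -2.19 ± 0.0719). Fpr1, a receptor for bacterial peptides, averaged 17 ± 2.37 CPM with ICI, 69.7 ± 6.46 CPM with GSK2033 and 68.3 ± 8.58 CPM with Vehicle (log2 -2.04 ± 0.114), so that GSK2033 overlapped Vehicle and ICI stood apart. Mcemp1, Vnn3 and Lad1 were scarce and were 5.53-fold, 5.53-fold and 4.96-fold lower with ICI. They averaged 0.478 ± 0.129, 0.603 ± 0.179 and 1.27 ± 0.411 CPM with ICI, against 2.69 ± 0.401, 3.36 ± 0.475 and 6.33 ± 1.28 CPM with GSK2033. Vnn3 with GSK2033 and Lad1 with ICI overlapped Vehicle.

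The same contrast was available in cells that also received 27HC, an oxysterol that binds both LXR and ER, in 5 libraries with ICI and 27HC and 5 with GSK2033 and 27HC. These share no library with the contrast above. The difference between the contrasts was called for 1698 of 13838 genes (12.3%), with 862 (6.23%) more positive and 836 (6.04%) more negative without 27HC than with it. LXR targets were again mostly higher with ICI, 20 of 26 with 2 (Nr1h3 and Slc29a1) lower in the presence of 27HC, where 32.4% of all genes were called, 16.3% higher and 16% lower, and the median log2 fold change was 0.68 without and 1.00 with 27HC. For 13 of the 26 the test of the difference passed, and all 13 had a smaller log2 fold change without 27HC.

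Abcg1 had a log2 fold change of 6.35 without and 8.81 ± 0.124 with 27HC, a difference of -2.46 ± 0.286 (adjusted p = 9.11e-09). With 27HC it averaged 330 ± 19.2 CPM with ICI and 0.737 ± 0.145 CPM with GSK2033. Scd2 and Abca1 had differences of -2.16 ± 0.0719 and -1.75 ± 0.0996. Interferon response genes were lower with ICI for 34 of 35 in the presence of 27HC, with a median of -0.39 without and -0.97 with it, and for 33 the difference passed the test, each with a higher log2 fold change without 27HC. Inflammatory genes were lower for 23 of 28 with 27HC and higher for 2 (Il1a and Tnfaip3), with a median of -1.03 without and -0.57 with it. The test of the difference passed in both directions, for 4 members with a higher and 11 with a lower log2 fold change without 27HC than with it. With 27HC, fatty acid synthesis genes were higher for 8 and lower for 4 of 16, beside 16.3% and 16% of all genes. Their median was 0.51 without and 0.26 with it. Cholesterol synthesis genes were higher for 3 (Msmo1, Idi1 and Dhcr7) and lower for 6 of 28 with 27HC, beside the same 16.3% and 16%. Insig1 had a difference of 0.46 ± 0.0528.

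**Figure D5:**
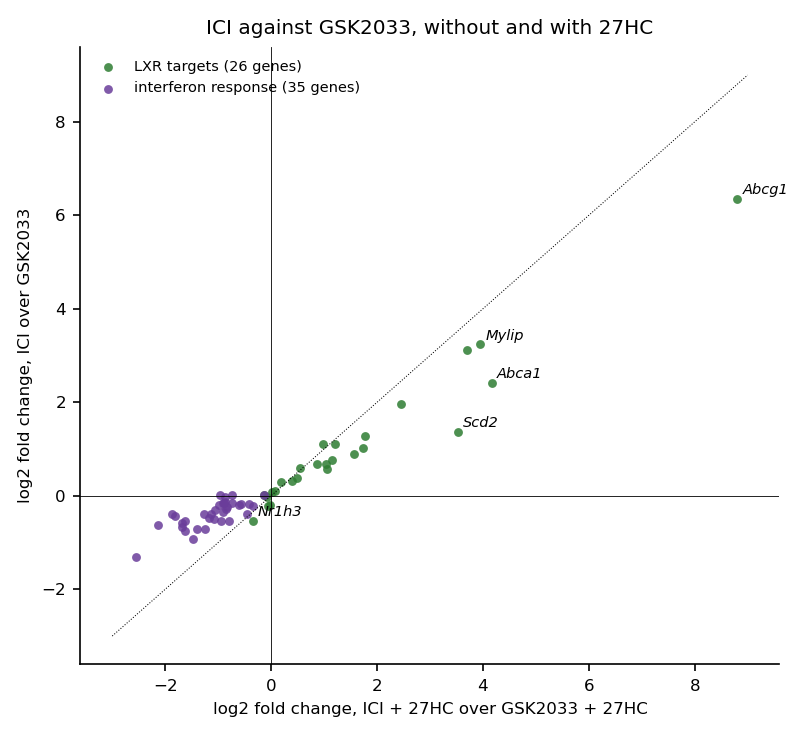
Log2 fold change of ICI over GSK2033 without 27HC (vertical) against the same with 27HC (horizontal) for 26 LXR targets in green and 35 interferon response genes in purple. The dotted line marks equal values, and the 33 interferon genes and 13 LXR targets with a called difference lie above and below it.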

How the data were processed

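RNA of 46 macrophage libraries was sequenced as single reads of 100 nt on 3 lanes from stranded TruSeq libraries, per the labels' protocols. The deposited values are estimated counts per gene, which the authors made with kallisto 0.44.0 on GRCm38 per the submitters' processing notes; whether transcript length was corrected for is not given in the sources used here. These expected counts were rounded to whole numbers, which changed the total of a library by at most 133 counts. GENCODE M21 gave symbols for 24279 of 24671 genes, and the other 392 held 0.455% of the counts.

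Genes were filtered with filterByExpr by group, scaled by TMM and fitted with edgeR 4.0.16 (quasi-likelihood, robust, R 4.3.3) to all 46 libraries with 1 mean per group, which left 37 residual degrees of freedom and a biological coefficient of variation of 7.55%. The contrasts were ICI minus GSK2033 and its difference without and with 27HC. P-values were adjusted by Benjamini-Hochberg over 13838 genes, threshold 0.05. No replicate libraries of ICI or GSK2033 agreed within sampling noise (chi-square per degree of freedom 4.692 to 11.8). Standard errors are the size of the log2 fold change over the square root of the F statistic, so those of a contrast and of a difference between contrasts need not add up. The test was checked on simulated data.

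The members, gene lists, motifs and named genes were chosen with earlier results of these data known. Named were receptor and LXR anchor genes, up to 4 smallest-p called members per list, the 12 highest and 12 lowest called log2 fold changes (mean CPM of at least 1, groups not overlapping, predicted genes passed over) and the 10 smallest p, with others marked; a few genes that this names are not reported here. Promoters are RefSeq sequences (GRCm38.p6), found for 10279 tested genes. Alternatives used limma 3.58.1, DESeq2 1.42.0, other scalings and filters, fewer libraries and a replicate block. The compound added to GW3965 in 5 libraries is named differently by labels, so it was left unnamed, and those libraries entered the fit only for the spread.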

Additional observations from a re-analysis of the deposited data

Results flagged for a closer look

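In 9 of 336 groups of values examined, 1 library stood apart from the rest of its group by Dixon's criterion at the 95% level, which flags about 1 group in 20 by chance. With ICI, these were Abca1 at 410 CPM in replicate 2 (others 368 to 377 CPM), Abi3 at 51.3 CPM in replicate 3 (others 58.5 to 60.7 CPM) and Gper1 at 0.333 CPM in replicate 3 (others 0.0964 to 0.145 CPM). With GSK2033, these were Mid1ip1 at 13.9 CPM in replicate 4 (others 17.2 to 18.3 CPM), Plin2 at 742 CPM in replicate 3 (others 671 to 691 CPM), Lipa at 1555 CPM in replicate 2 (others 1616 to 1637 CPM) and Gsr at 140 CPM in replicate 5 (others 160 to 166 CPM). With Vehicle, these were Vnn3 at 3.47 CPM (others 2.29 to 2.71 CPM) and Mt1 at 44.1 CPM (others 34.9 to 38.2 CPM), both in replicate 1. Among the genes called between ICI and GSK2033, none of these ICI or GSK2033 libraries reached the range of the other compound.

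The difference between ICI and GSK2033 itself differed without and with 27HC at 5 of 7 sterol genes followed, by the test of that difference in the same fit. Without 27HC minus with 27HC, the log2 fold changes differed by -2.46 for Abcg1, -2.16 for Scd2, -1.75 for Abca1 and -0.71 for Mylip, and by 0.46 for Insig1. Srebf1 and Hmgcs1 differed by -0.12 and 0.09 and did not pass the test.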

How the results depend on the processing

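Of 2299 values of 110 named genes under 21 alternatives, 2274 kept their direction and their side of the threshold. The calls that moved were those of Rxra, which lost its call 14 times (adjusted p up to 0.19261), and of Il18 and Esr1, which gained one in 8 alternatives and in 1, without GSK2033 replicate 2 (adjusted p = 0.042031). Insig1 and Irf7, whose differences were near 0, changed sign without ICI replicate 1 and without GSK2033 replicate 4, and ran from -0.04 to 0.00 and from -0.01 to 0.03 on the log2 scale as libraries were left out in turn. The stricter filter, which tests 10547 genes, left 59 genes at least 2-fold higher and 69 at least 2-fold lower, since many such genes have few counts. Leaving out 1 library at a time gave 1691 to 1872 higher, 1667 to 1864 lower, 93 to 111 at least 2-fold higher and 136 to 147 at least 2-fold lower. With the ICI and GSK2033 libraries alone in the fit, 3369 genes were called, 3211 of them among the 3765. DESeq2 gave 1892 higher and 1984 lower, and limma-voom 1921 and 1851. No call shared between analyses changed sign. Small list counts were less stable: over the alternatives, 2 to 5 chaperone genes, 2 to 4 receptors and coregulators and 1 to 2 osteoclast markers were higher, and 1 to 2 cholesterol genes, 0 to 1 fatty acid genes, 0 to 2 estrogen-responsive genes, 1 to 3 replication genes and 1 to 3 stromal markers were lower. It is not known if replicate numbers shared by the groups pair the libraries. Correlations of deviations between ICI and GSK2033 libraries of the same number ran from -0.000415 to 0.167. Those between libraries of different numbers ran from -0.205 to 0.117, and not every library correlated best with its own number. With a replicate block, 2072 genes were higher, 1901 lower, 106 at least 2-fold higher, 135 at least 2-fold lower and 1922 differed without and with 27HC, against 1729 higher and 1728 lower with a replicate block in the ICI and GSK2033 libraries alone. Genes below about 1 CPM, such as Nos2, Gper1 and Mcemp1 with ICI, rest on few counts per library.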
